A study of Mus musculus with 2 samples.

Results

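The Hox cluster genes were taken as all rows of the deposited table whose gene name is Hox followed by a cluster letter a to d and a number, which gave 37 of the 23097 genes listed. RNA came from ICR mouse embryonic fibroblasts (MEF), a mixed primary culture made from embryos, and the labels name no genetic change in either group. Cells were given the dye calcein and CoCl2, whose cobalt quenches calcein that it can reach, and were sorted by FACS into a dim and a bright pool. The mPTP is the permeability transition pore, a channel of the inner mitochondrial membrane, and the dim pool is the group of high and the bright pool that of low mPTP opening. The labels do not give the age, the body region or the number of the embryos. Each pool gave 1 library, so no difference here has a replicate check and all values describe these 2 libraries.

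Hox genes encode homeodomain transcription factors and lie in 4 clusters. Within a cluster the paralog number follows the order of the genes along the chromosome and, in the embryo, the order of their expression from head to tail. Low numbers are expressed up to the hindbrain and neck, middle numbers mark the trunk, and the highest numbers mark the tail end, the distal limb and the genital region. Human skin fibroblasts grown in culture are known to keep the Hox pattern of the body site they came from, and MEF cultures mix cells of several sites.

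The 4 clusters, on build mm10, span part of chromosome 6 (Hoxa), chr11:96271457-96354012 (Hoxb), chr15:102921103-103036852 (Hoxc) and chr2:74668310-74765142 (Hoxd) between the outermost listed members of the last 3. The table lists 11 Hoxa, 8 Hoxb, 9 Hoxc and 9 Hoxd genes, and of the 39 genes of this name in GENCODE M21 only Hoxb1 and Hoxb13 have no row in the table used here. Values are FPKM, which are scaled to exon length and library size, so levels can be set side by side between genes. The steps of the FPKM values gave whole reads for all 37 members in both libraries, from 7 reads in the sum of both libraries (Hoxd1) to 1300 (Hoxc8). Ratios are high to low mPTP opening, each followed by its exact 95% interval for counting error alone, which leaves out variation between cultures and sorts.

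The promoters shown are those of the members in the RefSeq promoter table (build GRCm38.p6) whose interval leaves out 1, and that of Hoxa5, which had the highest level in the low mPTP opening library. Each runs from 250 bases before to 50 bases after a RefSeq start, 5′ to 3′ on the gene's strand. Capitals mark motif matches on either strand, here CCAAT (or ATTGG) and the nuclear receptor core AGGTCA (or TGACCT). Hoxa5 lies at chr6:52204538-52204837 on the minus strand, Hoxa7 at chr6:52218524-52218823 on the minus strand, Hoxa13 at chr6:52260831-52261130 on the minus strand and Hoxd10 at chr2:74691641-74691940 on the plus strand.
Hoxa5: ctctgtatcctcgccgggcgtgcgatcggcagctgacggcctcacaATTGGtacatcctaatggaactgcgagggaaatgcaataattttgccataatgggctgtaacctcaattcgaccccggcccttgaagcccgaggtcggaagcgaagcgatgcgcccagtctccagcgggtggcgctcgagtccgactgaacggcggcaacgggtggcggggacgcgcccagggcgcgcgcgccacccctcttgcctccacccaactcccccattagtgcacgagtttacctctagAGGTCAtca
Hoxa7: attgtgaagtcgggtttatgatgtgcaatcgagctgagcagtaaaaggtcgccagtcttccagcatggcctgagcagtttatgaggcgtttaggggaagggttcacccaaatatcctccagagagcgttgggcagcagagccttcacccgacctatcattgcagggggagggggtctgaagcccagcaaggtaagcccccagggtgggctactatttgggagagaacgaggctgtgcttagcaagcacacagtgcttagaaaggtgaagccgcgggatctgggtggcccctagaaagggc
Hoxa13: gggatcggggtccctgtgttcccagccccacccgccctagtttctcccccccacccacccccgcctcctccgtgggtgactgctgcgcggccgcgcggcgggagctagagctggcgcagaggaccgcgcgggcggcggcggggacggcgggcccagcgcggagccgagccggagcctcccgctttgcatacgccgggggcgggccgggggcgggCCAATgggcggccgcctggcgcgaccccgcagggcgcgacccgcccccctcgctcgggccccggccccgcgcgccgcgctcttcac
Hoxd10: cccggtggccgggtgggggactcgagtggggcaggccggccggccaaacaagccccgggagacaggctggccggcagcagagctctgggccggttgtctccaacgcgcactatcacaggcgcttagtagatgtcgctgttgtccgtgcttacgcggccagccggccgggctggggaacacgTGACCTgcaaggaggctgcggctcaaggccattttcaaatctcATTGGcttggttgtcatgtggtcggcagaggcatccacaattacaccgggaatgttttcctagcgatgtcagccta

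These windows differ in base composition. The Hoxa13 promoter holds 81.0% G and C with 45 CpG dinucleotides, Hoxd10 62.7% with 22, Hoxa5 61.7% with 29 and Hoxa7 55.7% with 9. Of the 37 members 21 matched the table, with 23 promoters, whose median was 57.3% G and C and 15 CpG, against 52.7% and 7 over all 32851 promoters. Only Hoxb4, Hoxb8 and Hoxc4 stand for Hoxb and Hoxc, so these figures mostly describe Hoxa and Hoxd. Hoxb3, Hoxb6, Hoxb9, Hoxc6 and Hoxc8, with intervals above 1, have no promoter there. CCAAT was found in 14 of the 23 Hox promoters and in 37.4% of all promoters, and AGGTCA in 7 and in 16.3%. The TATA box TATAAA was found in 4 (17.4%) against 13.6%. TAATTA, the homeodomain core, was found in 2 (8.70%) against 5.29%, and TGATTNAT, the composite site of PBX and HOX proteins, in 2 against 3.22%. TTTATNG, a site of caudal and posterior HOX proteins that can overlap the reverse of TATAAA, was found in 2 against 10.9%. All were searched on both strands, and a match is a description of the letters, not of binding.

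In both libraries members numbered 5 to 10, the trunk range, held most of the Hox signal. Numbers 1 to 4 summed to 20.8 FPKM in the low and 22.2 FPKM in the high mPTP opening library, and members numbered 11 to 13 were near or below 1 FPKM except Hoxa11. The levels of the 37 members ranked almost alike in the libraries, with a Spearman correlation of 0.990 and a Pearson correlation of 0.987 on the log2(FPKM + 1) scale. These points share 2 libraries and the correlation is a description across genes. Over all members summed FPKM was 152 (low) and 165 (high), a ratio of summed reads of 1.08 (1.04 to 1.12).

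**Figure D1:**
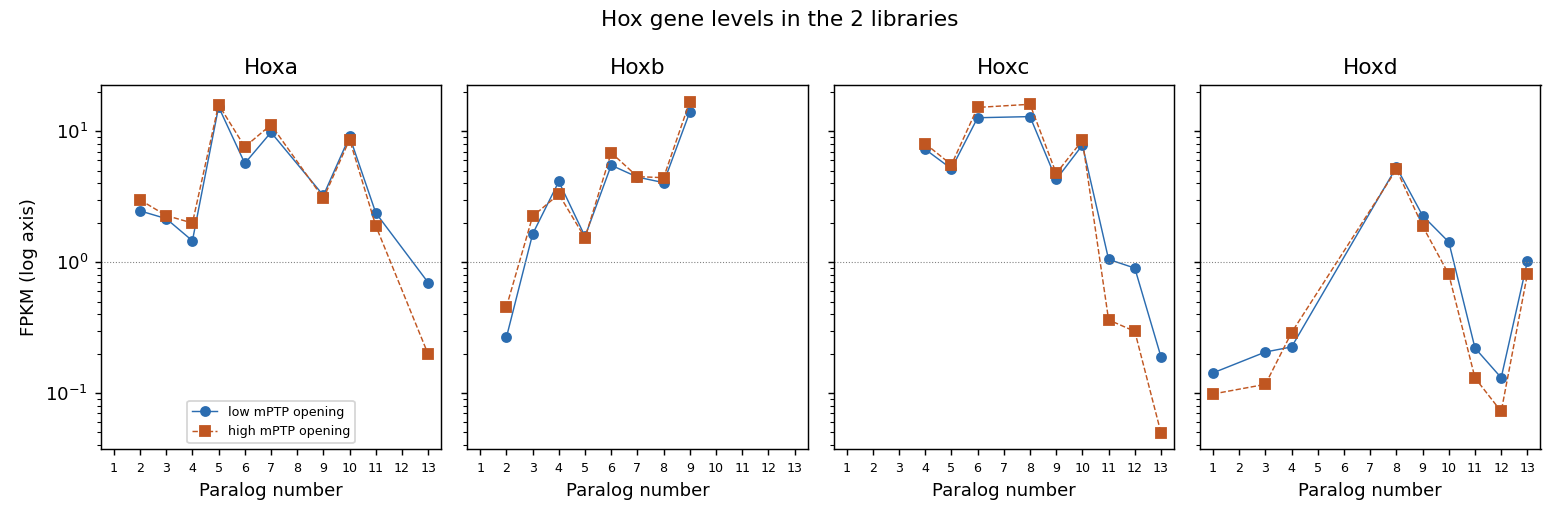
FPKM (log axis) of Hox genes against their paralog number, 1 panel per cluster, with circles for the low and squares for the high mPTP opening library (1 library each, so no error bars) and a dotted line at 1 FPKM. Both libraries rise and fall at the same numbers. The high mPTP opening library lies visibly lower at Hoxa13, Hoxc11 to Hoxc13, Hoxd3 and Hoxd10 to Hoxd12, and higher at Hoxb2. Of these, Hoxb2, Hoxc13, Hoxd3, Hoxd11 and Hoxd12 rest on few reads, with intervals that held 1.

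No member met the size rule used over all genes. At 1.5-fold or more on the log2((high + 1)/(low + 1)) scale, with a mean of at least 1 FPKM, 0 of 25 members were higher and 0 lower, against 1.54% and 4.38% of 11900 genes. Of the 25, 17 had a positive difference, against 45.4% of these genes, and their median was 0.10 against -0.02. The differences ran from -0.42 (Hoxd10) to 0.36 (Hoxa6). This scale and filter leave out 12 members, among them the posterior ones with the smallest ratios. Without a pseudocount, 1 of 34 members with at least 10 reads was 1.5-fold or more higher, against 4.82% of 15845 genes, and 7 were lower, against 15.3%. Intervals lay above 1 for 6 of the 34, against 16.2% of genes, and below 1 for 5, against 24.5%.

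The genes with at least 10 FPKM in both libraries were Hoxa5, Hoxb9, Hoxc6 and Hoxc8. Hoxc8, a trunk gene with roles in the thoracic skeleton (ENSMUSG00000001657, chr15:102990607-102994111), was at 12.97 FPKM (553 reads) in the low library and at 16.1 FPKM (747 reads) in the high library, a ratio of 1.24 (1.11 to 1.39). Hoxb9, a gene of the rib-bearing thorax (ENSMUSG00000020875, chr11:96271457-96276595), was at 14.1 and 16.9 FPKM, a ratio of 1.20 (1.07 to 1.35). Hoxc6, which marks the anterior thorax, was at 12.7 and 15.2 FPKM, a ratio of 1.20 (1.06 to 1.36). All 3 were somewhat higher in the high mPTP opening library, with intervals above 1. Hoxa5, which patterns the neck, sternum and lung, was at 15.4 and 16.0 FPKM, a ratio of 1.04 (0.912 to 1.19), a difference that was not detectable at this depth. It was the highest member in the low library and the one of rank 3 in the high library, where Hoxb9 was highest, and the ratios of Hoxa5 and Hoxb9 have overlapping intervals.

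Among the other members numbered 5 to 8, the trunk genes Hoxa7 and Hoxb6 also had intervals above 1. Hoxa7 was at 9.84 and 11.2 FPKM (1.14, 1.00 to 1.30), and 20.4% of its exon bases overlap the antisense gene Hoxaas3. Hoxb6 was at 5.51 and 6.87 FPKM (1.25, 1.01 to 1.54). Hoxa6, at 5.70 and 7.62 FPKM, had the furthest difference in this range and a ratio of 1.34 (0.987 to 1.82), whose interval lay above 1 under each of 3 other scalings of the libraries. Hoxc5, Hoxb8 and Hoxb7 had ratios of 1.07, 1.09 and 1.01, and Hoxb5 and Hoxd8 had ratios of 0.975 and 0.961. Of the 11 members numbered 5 to 8, 9 had a ratio above 1 and none differed by 1.5-fold, and summed FPKM was 82.7 and 94.2, a ratio of summed reads of 1.13 (1.08 to 1.19).

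Members numbered 9 and 10 lay on both sides of 1. Hoxc9, which sets thoracic motor neuron identity, was at 4.29 and 4.77 FPKM (1.11, 0.896 to 1.38), and Hoxc10, a lumbar and hindlimb gene, was at 7.86 and 8.54 FPKM (1.09, 0.907 to 1.30). Hoxa10, a gene of the lumbar region and the uterus, was at 9.14 and 8.67 FPKM (0.948, 0.831 to 1.08), and Hoxa9 was at 3.24 and 3.08 FPKM (0.9501, 0.801 to 1.13). Hoxd9 was at 2.27 and 1.89 FPKM (0.831, 0.587 to 1.18). None of these 5 differences was detectable at this depth. Hoxd10, a gene of the lumbar spinal cord and hindlimb (ENSMUSG00000050368, chr2:74691924-74695105), was at 1.43 FPKM (39 reads) and 0.807 FPKM (24 reads), a ratio of 0.566 (0.326 to 0.965). It is the only member with a mean of at least 1 FPKM whose interval lay below 1.

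Lower values in the high mPTP opening library were common among all weakly read genes, and the posterior Hox values stand beside that background. Of 4121 genes with 10 to 100 reads in the sum of both libraries, 66.3% had a ratio below 1, 38.0% were 1.5-fold or more lower and 14.9% had an interval below 1. Of the 11 Hox members in this class, 8 had a ratio below 1, 7 were 1.5-fold or more lower and 5 had an interval below 1, among them Hoxa13, Hoxc11, Hoxc12 and Hoxd10. The count of ratios below 1 is near the background, while those of members 1.5-fold or more lower and of intervals below 1 lie above their background shares. No test sets the members apart from these genes.

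The posterior members numbered 11 to 13, which pattern the distal limb, tail and genital region, were low in both libraries, and all 8 listed had a ratio below 1. Hoxc11, a hindlimb and posterior trunk gene (ENSMUSG00000001656, chr15:102954427-102957708), was at 1.05 FPKM (32 reads) and 0.363 FPKM (12 reads), a ratio of 0.345 (0.162 to 0.688). Hoxc12, its neighbour, was at 0.902 FPKM (14 reads) and 0.296 FPKM (5 reads), a ratio of 0.328 (0.0926 to 0.965). Hoxa13, which is needed for digits and the genital tract (ENSMUSG00000038203, chr6:52257694-52260880), was at 0.698 FPKM (26 reads) and 0.198 FPKM (8 reads), a ratio of 0.283 (0.111 to 0.644). These 3 intervals lay below 1, and with a common FPKM sum those of Hoxc12 and Hoxd10 reached 1. Hoxd13, the other main gene of digits, was at 1.02 FPKM (38 reads) and 0.812 FPKM (33 reads), a ratio of 0.799 (0.485 to 1.31), and Hoxa11, a gene of the forearm and lower leg, was at 2.38 and 1.90 FPKM, a ratio of 0.796 (0.571 to 1.11). Neither difference was detectable at this depth.

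The remaining posterior genes had too few reads to place. Hoxc13, a gene of hair and nails, had 7 and 2 reads (0.189 and 0.0496 FPKM), Hoxd11 had 14 and 9 reads, and Hoxd12 had 5 and 3 reads, and the 3 intervals held 1. Over numbers 11 to 13 the low library had 218 reads and the high library 143, a ratio of 0.603 (0.485 to 0.748), and their share of summed Hox FPKM was 4.32% and 2.31%. Without Hoxa11, the member with the most reads, the ratio was 0.487 (0.361 to 0.653). Numbers 11 to 13 were put together after their values were seen, so these sums are a description. Over the wider range of numbers 9 to 13, summed reads gave a ratio of 0.998 (0.938 to 1.06). With a common FPKM sum this ratio was 1.09, and its interval lay above 1.

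**Figure D2:**
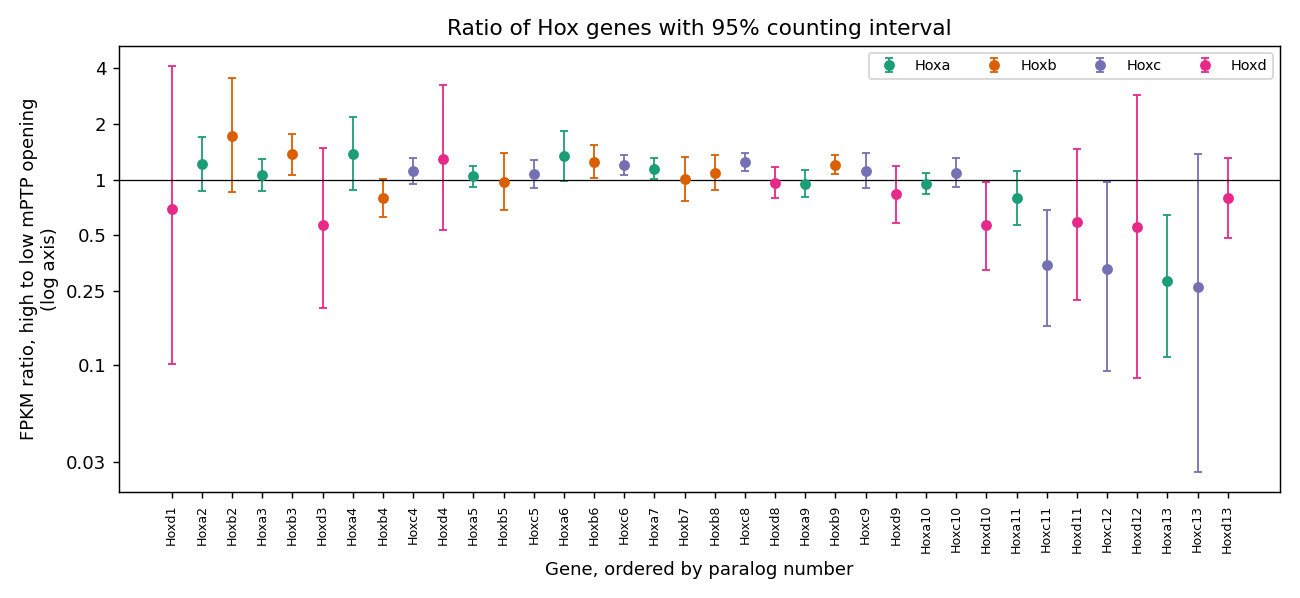
Ratio of FPKM in the high to the low mPTP opening library (log axis) for Hox genes ordered by paralog number and coloured by cluster, where bars are exact 95% counting intervals (1 library per group). Points of numbers 5 to 9 lie between 0.831 and 1.34, while Hoxc11, Hoxc12 and Hoxa13 lie between 0.283 and 0.345 with bars below 1.

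Anterior members, numbered 1 to 4, pattern the hindbrain, pharynx and neck. Of 6 measured, 5 had a positive difference, against 45.4% of all measured genes, and the median was 0.17, beside 0.10 for numbers 5 to 8. Of the 11 listed, 7 had a ratio above 1, and summed reads gave a ratio of 1.07 (0.979 to 1.17), an interval that held 1. Hoxa2, which patterns the pharyngeal arches, was at 2.47 and 2.99 FPKM (1.21, 0.870 to 1.70), and Hoxa3, needed for the thymus and parathyroid, was at 2.15 and 2.27 FPKM (1.06, 0.868 to 1.29). Hoxa4 was at 1.46 and 1.99 FPKM (1.37, 0.873 to 2.16), and Hoxc4 was at 7.29 and 8.06 FPKM (1.11, 0.941 to 1.30). Hoxb4, known for expanding blood stem cells, was at 4.14 and 3.31 FPKM (0.799, 0.632 to 1.01). None of these 5 differences was detectable at this depth, though the interval of Hoxc4 lay above 1 once both libraries had a common FPKM sum.

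Hoxb3 was at 1.64 FPKM (105 reads) and 2.24 FPKM (156 reads), a ratio of 1.37 (1.06 to 1.77). The antisense gene Hoxb3os covers 52.9% of the exon bases of Hoxb3 and 27.3% of those of Hoxb2, and had 21 and 41 reads, a ratio of 1.80 (1.04 to 3.20). Hoxb2 had 14 and 26 reads, a ratio of 1.71 (0.860 to 3.54), and was the only member 1.5-fold or more higher without a pseudocount. Whether counting used strand is not given in the sources used here, so reads of these sense and antisense genes cannot be told apart. Hoxd1, Hoxd3 and Hoxd4 were under 0.5 FPKM in both libraries, with ratios of 0.690, 0.566 and 1.29 whose intervals held 1, and Hoxd3 and Hoxd4 share exon bases with each other and with the protein-coding gene Gm28230. Hoxc5 and Hoxc10 share 166 exon bases. Of the 37 members 16 overlap exons of another gene, 10 of them by over 10% of their bases.

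**Figure D3:**
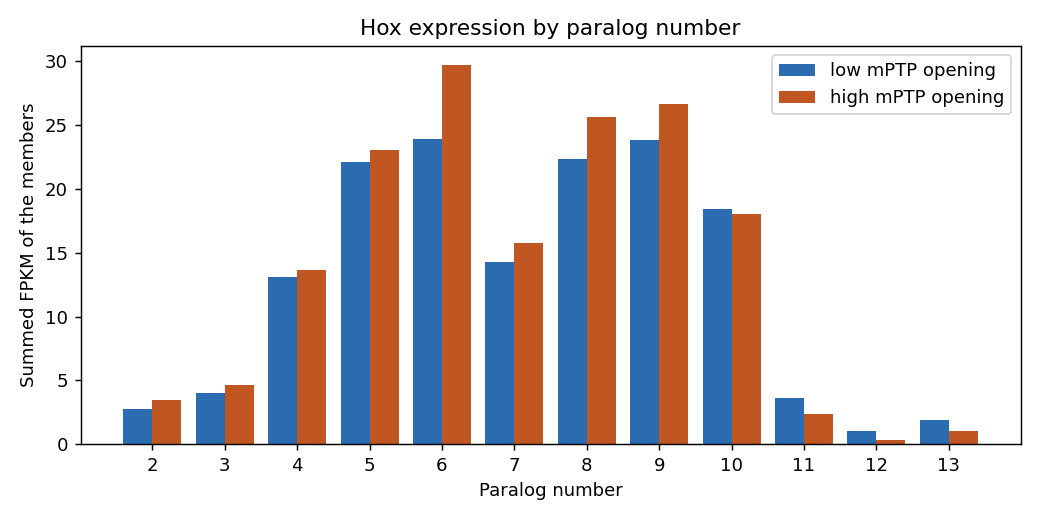
Summed FPKM of the Hox genes of each paralog number from 2 to 13 (bars from 0) in the low and the high mPTP opening library, 1 library each. Numbers 5 to 10 carry most of the signal, number 6 shows the widest gap at 23.9 and 29.7 FPKM, and numbers 11 to 13 are at 3.65 FPKM or less.

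By cluster, Hoxb and Hoxc members were slightly higher and Hoxd members slightly lower in the high mPTP opening library. Summed reads gave a ratio of 1.14 (1.07 to 1.21) for Hoxc, 1.14 (1.06 to 1.22) for Hoxb, 1.03 (0.967 to 1.09) for Hoxa and 0.862 (0.749 to 0.992) for Hoxd. The clusters do not hold the same numbers, since Hoxb has no listed member above 9 and Hoxd none from 5 to 7. Hoxc was divided along its length, as Hoxc4 to Hoxc10 all had a ratio above 1, with 1920 and 2425 reads (1.16, 1.09 to 1.23), while Hoxc11 to Hoxc13 had 53 and 19 reads (0.330, 0.184 to 0.566). This division was also chosen after the values were seen. In Hoxd, 8 of 9 members had a ratio below 1, beside 66.3% of all genes with 10 to 100 reads, a class that holds 5 of the 9. Hoxd8, with 220 and 230 reads, held most of the reads. The Hoxd ratio was 0.940 after each library was scaled to a common FPKM sum, which lies within its counting error of 1. The same scaling multiplies the other cluster ratios by 1.09, and the interval of Hoxa then lies above 1.

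The clusters also hold microRNA genes, whose mature products pair with Hox messages, and their sequences are shown because they sort the members by shared target letters. In the RefSeq sequences the seed, bases 2 to 8, is in capitals.
miR-196a-5p: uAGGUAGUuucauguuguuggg
miR-196b-5p: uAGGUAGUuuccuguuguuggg
miR-10a-5p: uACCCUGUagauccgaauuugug
miR-10b-5p: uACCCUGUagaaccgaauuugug

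Both miR-196 forms share 1 seed, and both miR-10 forms share another. The reverse complement of the miR-196 seed was found in the longest annotated 3′ untranslated region of 8 of the 37 members, among them Hoxa4, Hoxa5, Hoxa7, Hoxa9, Hoxb6, Hoxb7 and Hoxc8, against 6.80% of 21173 genes. That of the miR-10 seed was found in 4, among them Hoxa3, Hoxb3 and Hoxd1, against 12.9%, so it was no more common in the members than over all genes. For the seed of miR-615-3p, whose sequence is not shown, 1 member had a match, Hoxb4, against 2.82%. Only exact matches of the whole seed were counted, so a member without a match may still hold a site with imperfect pairing. Lengths of the untranslated regions were not matched between members and all genes. Hoxa7 holds 4 miR-196 matches and Hoxc8 holds 2, and the first site of each is shown 5′ to 3′ with the seed match in capitals.
Hoxa7: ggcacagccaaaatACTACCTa
Hoxc8: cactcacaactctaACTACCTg
Of the named members with a miR-196 match, Hoxa9 alone had a ratio below 1, at 0.9501 (0.801 to 1.13). The others ran from 1.01 (Hoxb7) to 1.37 (Hoxa4), and the intervals of Hoxa7, Hoxb6 and Hoxc8 lay above 1. Intervals above 1 were not particular to members with a match, since Hoxb3, Hoxb9 and Hoxc6, which hold none, also had them. Over all genes with at least 10 reads 16.2% had such an interval. A link of these ratios to the microRNAs was not tested. The microRNA genes themselves had few reads in these libraries, which were not made for small RNA. Mir196a-1 had 7 and 14 reads and Mir10a had 3 and 2, and both intervals held 1. Of 23 non-coding and Evx genes looked for in the clusters 4 had a mean of at least 1 FPKM, of which Mir196a-1 was past 1.5-fold, and their median was -0.11. Of the others, Hoxaas2 was at 1.70 and 1.42 FPKM (0.834, 0.606 to 1.15) and Hoxb5os at 3.43 and 3.25 FPKM (0.945, 0.581 to 1.54).

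HOX proteins bind DNA together with TALE homeodomain cofactors of the PBX, MEIS and PKNOX families. Of 11 TALE genes 9 had a mean of at least 1 FPKM, and 0 differed by 1.5-fold in either direction, with a median log2 difference of -0.04. Among all 11900 measured genes, 1.54% passed 1.5-fold upward and 4.38% downward. A count of 0 in this list, or in the Polycomb and MLL lists below, is near those shares. Pbx3, at 10.6 and 8.34 FPKM, was the furthest apart, a difference of -0.31, followed by Meis3 at 6.70 and 5.83 FPKM, Meis1 at 6.08 and 5.44 FPKM and Pknox1 at 4.45 and 4.95 FPKM. Polycomb complexes, which keep unused Hox genes silent, had 0 of 29 measured members past 1.5-fold and a median of -0.01. Single members still differed beyond counting error, in both directions. Pcgf5 was at 3.40 and 4.97 FPKM (1.46, 1.32 to 1.61) and Phf19 at 1.98 and 2.63 FPKM (1.33, 1.08 to 1.65). Ezh1, a methyltransferase of histone H3, was at 3.69 and 2.61 FPKM (0.708, 0.610 to 0.822). Cbx6 was at 37.7 and 28.9 FPKM (0.767, 0.739 to 0.796). The MLL and trithorax genes, which keep active Hox genes on, had 0 of 17 past 1.5-fold and a median of 0.01, with Psip1 at 14.9 and 18.4 FPKM, Hcfc1 at 25.7 and 30.6 FPKM, Dpy30 at 14.8 and 17.1 FPKM and Kdm6b at 14.05 and 12.4 FPKM.

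Retinoic acid, which induces Hox genes from the anterior end of each cluster, acts through a pathway in which 14 genes were measured, with a median of -0.01, 1 past 1.5-fold upward and 1 downward. Crabp1 and Crabp2, which encode proteins that carry retinoic acid in the cell, differed in opposite directions. Crabp1 was at 134 and 206 FPKM, a ratio of 1.54 (1.45 to 1.64), and Crabp2 was at 28.5 and 16.5 FPKM, a ratio of 0.579 (0.506 to 0.662). Dhrs3, a retinaldehyde reductase, was at 28.1 and 19.5 FPKM (0.693, 0.636 to 0.755), and Aldh1a1 was at 5.27 and 6.60 FPKM. In a list of other regulators of the clusters, of which 6 were measured, Gmnn, whose product geminin is known to inhibit HOX proteins, was at 8.93 and 12.5 FPKM, Egr2 at 7.68 and 5.46 FPKM and Gdf11 at 6.95 and 5.62 FPKM, and the median of this list was -0.22. The caudal genes Cdx1, Cdx2 and Cdx4 have no row in the table used here.

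**Figure D4:**
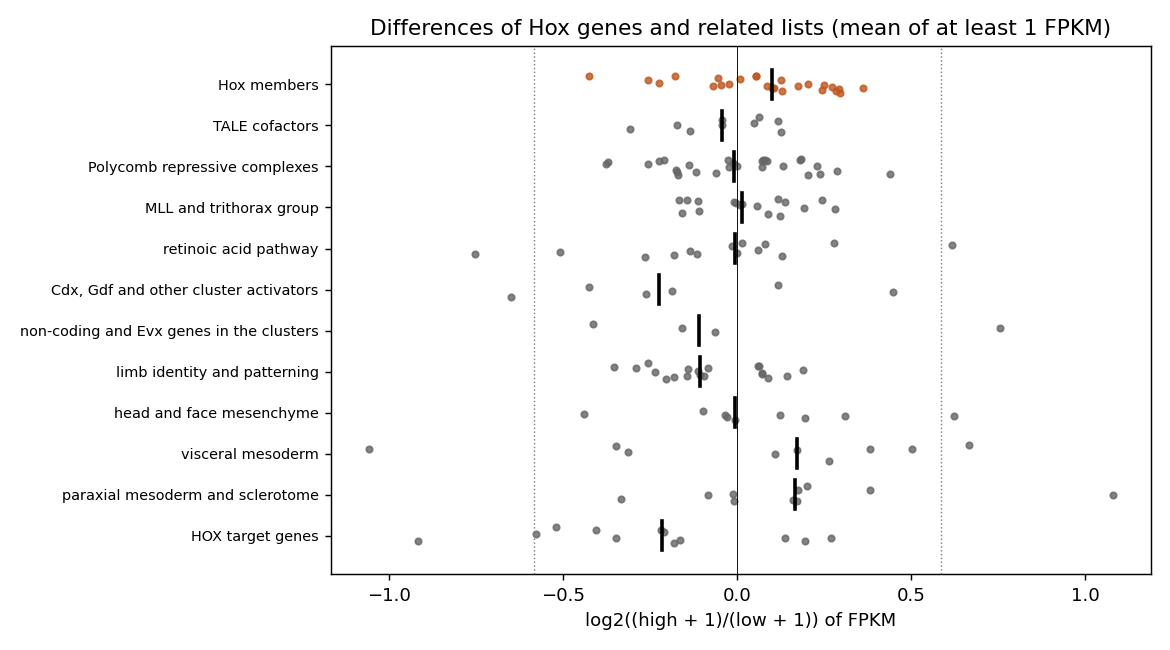
Difference log2((high + 1)/(low + 1)) of FPKM for each gene with a mean of at least 1 FPKM, for the Hox genes and 11 related lists, where points are genes, black bars are medians and dotted lines mark 1.5-fold. All 25 Hox genes lie between -0.42 and 0.36, and single genes of other lists (Pax1 at 1.08, Gata4 at -1.06) lie beyond the dotted lines.

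Other genes of body position had single members further apart than any Hox gene with a mean of at least 1 FPKM. Below that mean, Hoxa13, Hoxc12 and Hoxc11 had ratios of 0.283, 0.328 and 0.345. Pax1, which specifies the sclerotome that forms vertebrae and is one of 10 measured paraxial genes, was at 3.87 and 9.31 FPKM, a ratio of 2.40 (2.08 to 2.78), while Scx was at 9.94 and 7.69 FPKM, Sox9 at 6.15 and 7.22 FPKM and Nkx3-2 at 0.966 and 1.56 FPKM. Of 9 measured visceral mesoderm genes 1 was higher and 1 lower by 1.5-fold or more, while 6 had a positive and 3 a negative difference. Foxf1, a regulator of gut and lung mesenchyme, was at 1.84 and 3.51 FPKM (1.91, 1.42 to 2.59), and Foxf2 was at 0.983 and 1.81 FPKM. Gata4, a regulator of heart and visceral mesoderm, was at 3.30 and 1.06 FPKM, a ratio of 0.322 (0.241 to 0.427).

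Of 19 measured limb genes 0 were past 1.5-fold, against 1.54% of all measured genes higher and 4.38% lower. In a list of this size that count is near those shares. The median was -0.11, against -0.02 over all measured genes. The forelimb gene Tbx5 was at 1.97 and 2.10 FPKM, and the hindlimb genes Tbx4 and Pitx1 were at 2.15 and 1.92 FPKM and at 5.55 and 5.06 FPKM. These 3 limb identity genes are named after their values were seen. Shox2, of the proximal limb, was at 8.58 and 6.49 FPKM, Tbx2 at 5.15 and 4.03 FPKM, Hand2 at 1.81 and 1.35 FPKM and Irx3 at 7.33 and 6.08 FPKM. Of 9 measured head and face genes, Gsc, at 0.995 FPKM (19 reads) and 2.07 FPKM (43 reads), was the 1 past 1.5-fold, a ratio of 2.08 (1.19 to 3.78), and the median of that list was -0.00. Dlx5 was at 1.67 and 0.971 FPKM, Emx2 at 2.74 and 3.64 FPKM and Six2 at 2.41 and 2.91 FPKM. Of 12 measured genes listed as HOX targets, 1 was lower by 1.5-fold or more and the median was -0.21. This was Igfbp5, at 640 and 338 FPKM (0.529, 0.522 to 0.536), and Tgfb2 was at 27.0 and 17.8 FPKM, Efna1 at 3.88 and 2.40 FPKM and Angptl2 at 18.7 and 13.8 FPKM.

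The libraries differed in markers of other cells. Fibroblast markers, which check the label, were listed for 11 of 11 genes, with summed FPKM of 7015 and 6965, a sum carried by collagen and fibronectin genes. Of 10 measured, 2 were lower by 1.5-fold or more, Dcn at 175 and 98.9 FPKM and Lum at 147 and 91.6 FPKM, and 0 were higher by that size, while Thy1 was at 56.6 and 81.7 FPKM. S100a4 was listed at 0 in the low mPTP opening library. All 13 macrophage markers had a negative difference, with summed FPKM of 953 and 466 and 10 lower by 1.5-fold or more. Every one of 5 measured glial markers was past that size too (17.2 and 2.73 FPKM summed over 9 genes), as were 5 of 6 measured mesothelial markers (39.3 and 17.5 FPKM over 7). No marker of these 3 lists was at 0 in either library. Of 10 smooth muscle and pericyte markers 4 were higher by 1.5-fold or more, 0 were lower by that size and 4 had a negative difference. Their summed FPKM of 1265 and 2128 was mostly Acta2, at 1166 and 1953 FPKM. The pericyte markers did not move together. Notch3, Kcnj8 and Abcc9 had ratios of 0.659, 0.652 and 0.513 with intervals below 1. Cspg4 went the other way, with a ratio of 1.20 (1.115 to 1.29), and Rgs5 had a ratio of 0.920 (0.728 to 1.16). The medians were 0.12 for 5 measured chondrocyte, -0.93 for 2 epithelial and 0.31 for 2 neuronal markers, and 1 endothelial marker was at -0.06. The 2 epithelial markers were Krt8 and Krt18, while Epcam had 2 reads in each library. The 2 neuronal markers were Tubb3, at 0.65, and Map2, at -0.04. Other markers of these lists had a mean below 1 FPKM, so these medians do not describe the cell types. The part of all these cell types in the Hox values was not tested, and in these pooled cells fewer cells of a type and less RNA per cell cannot be told apart. The depth of the libraries, from the FPKM steps, was 15060433 reads or fragments (low) and 16375730 (high).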

How the data were processed

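RNA of sorted MEFs was taken with Trizol and made into libraries with an Illumina TruSeq RNA kit, per the labels' protocols. FPKM values per gene were deposited by the authors, and the 2 columns were matched to the samples by name. The submitters' processing notes list TopHat2 2.0.12, Bowtie2 2.2.3 and mm10. No source used here gives the counting tool, its annotation or its strand setting.

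Exon lengths of GENCODE M21 (99.6% of identifiers found, and all 37 members at the same position) times FPKM gave multiples of 1 step per library. Of genes with up to 20 reads, 93.1% (low) and 93.4% (high) came out whole within 0.05 reads, as did all 37 members. Reads gave exact Clopper-Pearson intervals of each ratio at 95%. PCR copies are not independent, so intervals cover counting error only. Over the members, 3 reads are 0.0331 to 0.228 FPKM in the low mPTP opening library.

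Differences were log2((high + 1)/(low + 1)) of FPKM, with a mean of at least 1 FPKM and 1.5-fold as the size rule. With 1 library per group no test was run. Measured members, and those with 0.5 FPKM or more in a library, are named, as are up to 4 genes of each other list with the largest differences. Other members and single genes were named to account for all or to show a result, after their values were seen. Members and lists (11 of genes, 9 of markers) were chosen with earlier results of these data known. Motifs and seed matches were searched in RefSeq promoters and microRNAs and GENCODE M21 transcripts. Homeodomain proteins were not analysed here, and 1 member and 1 listed gene are counted but not reported here. Alternatives were other pseudocounts, scalings, filters and size rules. The scripts were tested on simulated data. Software was SciPy 1.17.1, pandas 2.3.3, NumPy 2.4.6 and, for figures, matplotlib 3.10.9, under Python 3.11.15.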

Additional observations from a re-analysis of the deposited data

How the results depend on the processing

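The count of Hox genes lower by 1.5-fold or more, 0 of 25, was 1 with a pseudocount of 0.1 FPKM, 1 with no filter on the mean and 7 as FPKM ratios without a pseudocount for members with at least 10 reads. The count of higher genes, also 0, was 1 under the last setting. That setting was chosen after seeing the data. The median of the Hox genes ran from 0.01, with no filter, to 0.23, with each library scaled to a common FPKM sum, and stayed positive under the 9 alternatives run. Scaling to that sum shifted every ratio by 0.12 on the log2 scale, while the median ratio and a trimmed mean shifted it by 0.03. Under the common sum the ratios of Hoxa9, Hoxa10, Hoxb5 and Hoxd8 turned above 1, the intervals of Hoxc12 and Hoxd10 reached 1, that of Hoxc4 lay above 1, and numbers 11 to 13 had a ratio of summed reads of 0.657. The interval of Hoxa6 lay above 1 under all 3 scalings, so 6 such intervals became 8 under the common sum and 7 under the other scalings. The median of numbers 9 to 13, -0.06, turned to 0.05 under the common sum and to 0.11 with 5 FPKM as the smallest mean. The medians of the Polycomb, retinoic acid, and head and face lists turned positive under all 3 scalings, and that of the TALE list under the common sum. With 5 FPKM as the smallest mean the Polycomb median was 0.07 and the non-coding list held Mir196a-1 alone, at 0.76. Members of few reads are limited by depth. No paired analysis was possible because each group has 1 library, and for the same reason no library could be left out.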
